A study of Rattus norvegicus with 3 samples.

Results

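Chemokines are small secreted proteins that attract leukocytes along a concentration gradient. They act through G protein-coupled receptors on the arriving cells and are held near their source by heparan sulfate chains. Keratinocytes make several of them, and the genes of the inflammatory members are known targets of the transcription factor NF-κB downstream of IL-1, TNF and IL-17 receptors. CXCL14 differs in this respect, since it is made constitutively in healthy epithelium. The 6 genes described here are Cxcl1, Cxcl2, Cxcl6, Cxcl14, Ccl2 and Ccl5, out of 15037 named genes on the array. They were matched by gene symbol, and they were chosen by their log2 signals on these arrays, their level against background and their pairwise differences, so all their values are descriptions without a test.

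The values come from the FRSK line of keratinocytes, which was derived from the skin of rat fetuses, with 1 whole-transcript array for each of 3 groups. The cells received Met-enkephalin (Met-ENK) at 100 nM for 24 h, or the β-endorphin fragment β-END(1-9) at 100 nM for 24 h, or no stimulation (control). All groups were the same cell line in the same serum-containing medium, and the labels do not say whether control cells received vehicle. With 1 array per group no spread between cultures can be estimated, so no p-value, standard error or interval is given, and precision is limited by the small number of arrays. In RNA from whole cultures, fewer cells of a type and less RNA per cell cannot be told apart.

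The keratinocyte label was checked against marker genes. All 10 measured keratinocyte markers were above the array's background on all 3 arrays, and the basal keratin Krt14 had log2 signals of 16.61 after Met-ENK, 16.63 after β-END(1-9) and 16.70 in control cells. Background here means the range of 23 background probe sets, which ran from 2.51 to 7.57 on the log2 scale on each array. On each peptide array 22 of the 23 held exactly the value of the control array. The ranges are therefore not separate measures of background. Of 15 measured immune cell markers 2 were above the background range. Of 11 fibroblast markers 2 were above it on all arrays, and of 11 endothelial markers 0 were. The pan-leukocyte gene Ptprc had 4.05, 4.02 and 4.08 in the order Met-ENK, β-END(1-9) and control. All its values were inside the background range. The immune markers above the range were Cd14 and Cd74, and the log2 of the summed linear signal of the immune list was 10.16 after Met-ENK and 10.17 after β-END(1-9), against 10.24 in control cells.

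Promoter sequences show one feature that divides these genes and that their choice did not use. RefSeq promoters (build GRCr8, 250 bases before to 50 bases after the annotated start) were matched for 4 of the 6 genes. The consensus site for NF-κB, searched on both strands, was found in the promoters of Cxcl1, Cxcl2 and Cxcl6, and not in that of Cxcl14. Among 33469 promoters of the same length, 7.51% hold a match. The stretches below are shown because 1 of the 3 genes that share the site had measured differences from control past 1.5-fold and the others did not. Capitals mark the bases covered by overlapping matches on both strands, a pair of them in Cxcl1 and in Cxcl6 and 3 in Cxcl2.
Cxcl1 (chr14:17479385-17479415, minus strand): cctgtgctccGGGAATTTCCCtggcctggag
Cxcl2 (chr14:17467309-17467339, minus strand): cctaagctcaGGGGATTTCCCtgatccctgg
Cxcl6 (chr14:17596485-17596515, minus strand): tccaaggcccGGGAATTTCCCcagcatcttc

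The matched 11 bases were identical in Cxcl1 and Cxcl6, and each differed from Cxcl2 at 1 base. They began 84 bases before the start site in Cxcl1, 74 in Cxcl2 and 88 in Cxcl6. The AP-1 site TGANTCA, searched on both strands, was found in the Cxcl14 promoter and in none of the other 3, and 7.33% of promoters hold it. The exact letters TATAAA, searched on the forward strand, were in none of the 4 windows and in 8.8% of all promoters. Variants of these letters were not searched, so this does not show that a TATA element is absent. A match describes letters and not binding. The promoters of the pair of genes that differed most from control follow in full, with the NF-κB match of Cxcl6 and the AP-1 match of Cxcl14 in capitals.
Cxcl6 (chr14:17596368-17596667, minus strand): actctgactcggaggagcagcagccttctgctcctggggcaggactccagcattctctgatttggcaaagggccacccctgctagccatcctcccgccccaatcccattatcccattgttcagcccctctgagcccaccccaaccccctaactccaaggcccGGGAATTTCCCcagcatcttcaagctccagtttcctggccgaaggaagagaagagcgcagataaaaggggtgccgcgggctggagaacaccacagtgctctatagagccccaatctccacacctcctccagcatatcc
Cxcl14 (chr17:8322900-8323199, plus strand): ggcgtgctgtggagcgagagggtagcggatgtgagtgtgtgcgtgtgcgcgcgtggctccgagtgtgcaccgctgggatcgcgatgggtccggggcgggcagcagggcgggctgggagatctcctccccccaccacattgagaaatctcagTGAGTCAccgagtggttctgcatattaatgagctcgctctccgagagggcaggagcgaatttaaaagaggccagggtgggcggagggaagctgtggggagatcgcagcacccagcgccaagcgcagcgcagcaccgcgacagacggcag

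Calls were made at 1.5-fold, which is 0.585 in log2 units, among the 7519 genes whose mean log2 signal over the 3 arrays was at least 6.41, the median of all named genes. Of the 6 chemokine genes 5 passed this filter, and Ccl5 did not. Against control, 2 of the 6 were past 1.5-fold after Met-ENK, where 6.72% of genes passing the filter were, and 2 of the 6 after β-END(1-9), where 2.83% were. One of the pair was Cxcl6, lower after either peptide, where 6.02% of genes were lower after Met-ENK and 2.27% after β-END(1-9). The other was Cxcl14, higher after either peptide, where 0.692% of genes were higher after Met-ENK and 0.559% after β-END(1-9). Between the peptides 0 of the 6 were past 1.5-fold, where 4.59% of genes were, 1.89% being higher after Met-ENK and 2.7% lower. Since the 6 genes were chosen with these values in view, nothing is read from their counts against those shares.

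**Figure D1:**
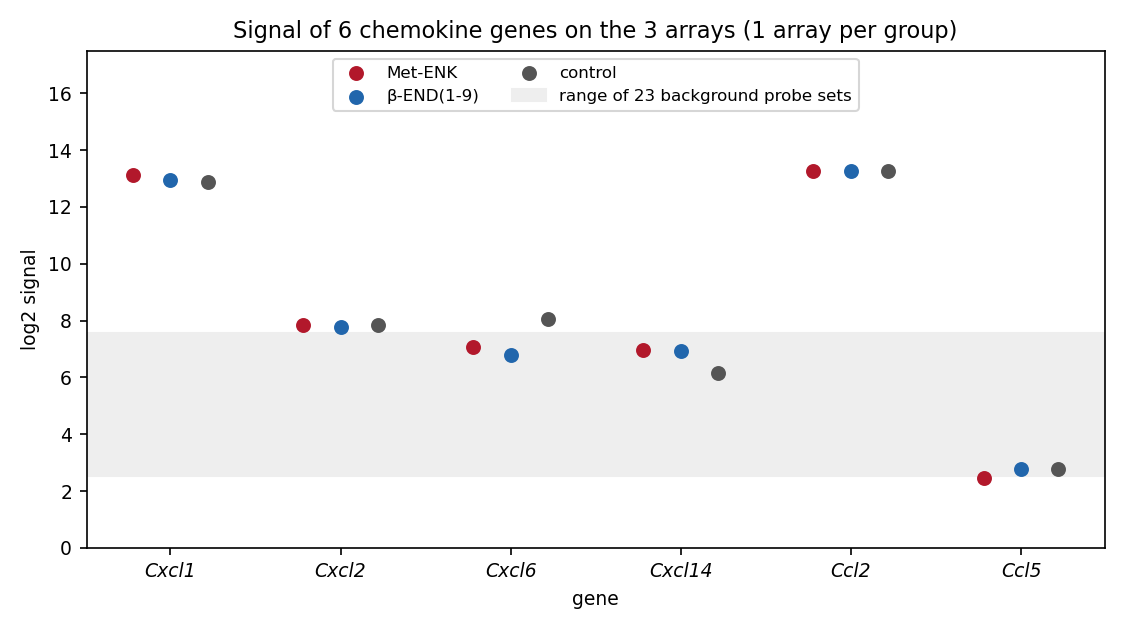
Log2 signal of the 6 chemokine genes (y axis) by gene (x axis), 1 point per array, with those of Met-ENK, β-END(1-9) and control from left to right in each gene. The grey band spans the 23 background probe sets, from 2.51 to 7.57. Cxcl6 is above the band on the control array and inside it after either peptide, and Cxcl14 is inside it on all 3 arrays.

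Cxcl6 was the chemokine gene furthest from control. In the rat this symbol stands for the gene that RefSeq also lists under the synonym Cxcl5, a neutrophil attractant of the CXC family (Entrez gene 60665). Its log2 signal was 7.09 after Met-ENK and 6.80 after β-END(1-9), against 8.05 in control cells. The control array alone was above the background range, and both peptide arrays lay inside it, so the level after either peptide is indistinguishable from background. The measured difference from control was -0.96 after Met-ENK and -1.25 after β-END(1-9). With the highest background probe set as the floor for the peptide arrays, the measured Cxcl6 signal was at least 1.40-fold lower after either peptide. This bound is itself under 1.5-fold, and it takes the single control value as exact, which 1 array cannot show. No fold is given between the peptides, since both values lay inside the background range.

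Both comparisons of Cxcl6 rest on the same single control value, so its 2 differences are not separate measurements. Of 1062 genes passing the filter with a mean level within 0.5 of that of Cxcl6, 6.69% were at least 1.5-fold lower after Met-ENK and 4.52% after β-END(1-9). Gene size moved with the Met-ENK comparison. Among genes of the shortest quintile by genomic span, 81 to 8049 bases, 13.6% were at least 1.5-fold lower after Met-ENK, against 1.53% in the longest quintile. For β-END(1-9) these shares were 2.53% and 2.59%. Cxcl6 spans 1459 bases, and with the trend along span removed its differences were -0.83 after Met-ENK and -1.22 after β-END(1-9).

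Cxcl14 was the member with higher signal after the peptides. It encodes the chemokine also called BRAK (Entrez gene 306748), which is known from normal skin epithelium. Its log2 signal was 6.96 after Met-ENK and 6.93 after β-END(1-9), against 6.15 in control cells. The control array was the low one, and all 3 values lay inside the background range. The measured difference from control was 0.81 after Met-ENK and 0.77 after β-END(1-9), and Met-ENK minus β-END(1-9) was 0.04. No fold is given at such signals. Its mean passed the level filter through the peptide arrays, since the control value was under 6.41. Among the 783 genes with a mean level within 0.5 of that of Cxcl14, 3.07% were at least 1.5-fold higher after Met-ENK and 2.94% after β-END(1-9). As for Cxcl6, a single control value stands behind both differences. Cxcl14 also falls in the shortest quintile by span (8027 bases), where 0.931% of genes were at least 1.5-fold higher in either comparison.

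**Figure D2:**
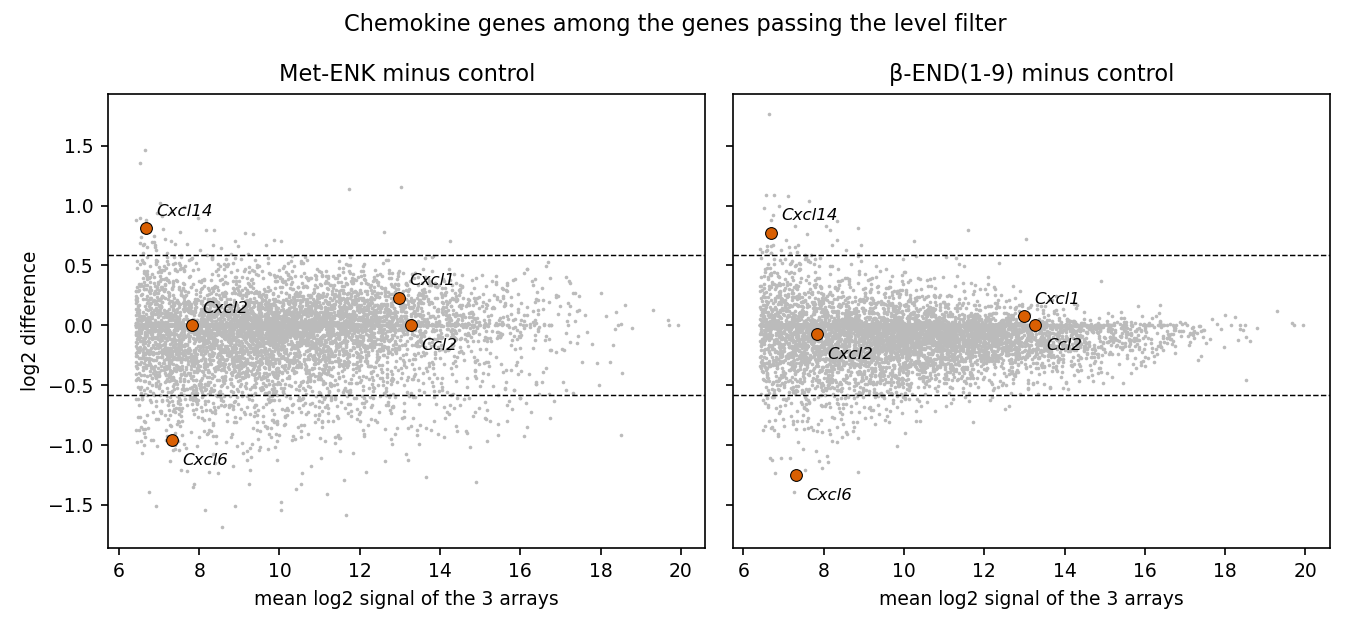
Log2 difference from control (y axis) against mean log2 signal of the 3 arrays (x axis) for the 7519 genes passing the level filter (grey) and the 5 chemokine genes among them (orange), for Met-ENK on the left and β-END(1-9) on the right. Dashed lines mark 1.5-fold. In the β-END(1-9) panel the scatter of all genes is wider at low signal, where Cxcl6 and Cxcl14 lie, and Cxcl1, Cxcl2 and Ccl2 sit between the lines.

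Cxcl1, a neutrophil attractant acting through the receptor Cxcr2 (Entrez gene 81503), was above the background range on every array. It had log2 signals of 13.11 after Met-ENK and 12.95 after β-END(1-9), against 12.88 in control cells. The Met-ENK array was the highest, 0.23 above control (1.17-fold), and the β-END(1-9) array was 0.07 above control (1.05-fold). Neither reached 1.5-fold, and the Met-ENK difference ranked 724 from the highest of 7519. Met-ENK minus β-END(1-9) was 0.16. These values moved by over 1.5 times under some settings, without passing the threshold. The Met-ENK difference from control was 0.37 with the span trend removed. The β-END(1-9) difference from control was 0.17 after quantile normalization, 0.16 after loess scaling and 0.04 after median centring. Met-ENK minus β-END(1-9) was 0.09 after quantile normalization, 0.10 after loess scaling and 0.25 with the span trend removed.

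Cxcl2, another neutrophil attractant of the Cxcr2 group (Entrez gene 114105), was just above the background range. Its log2 signal was 7.85 after Met-ENK and 7.78 after β-END(1-9), against 7.85 in control cells. The Met-ENK and control values were exactly equal in the deposited table, and β-END(1-9) was 0.07 lower. That last difference was -0.01 after quantile normalization and -0.11 after median centring. Exact equality is common in this table: among genes passing the filter, 21.6% had the same value on the Met-ENK and control arrays and 25.1% on the β-END(1-9) and control arrays. A difference of 0 is therefore not a precise measure of no change.

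Ccl2, the monocyte attractant also called MCP-1 (Entrez gene 24770), had 1 value, 13.28, on all 3 arrays. Its 3 differences were therefore 0.00, at a signal above the background range. Quantile, median and loess scaling put its difference from control between -0.02 and 0.06 after Met-ENK and between -0.04 and 0.11 after β-END(1-9). With the span trend removed, a setting added after seeing the data, the Met-ENK difference was 0.14. Ccl5, which attracts T cells and other leukocytes and is also called RANTES (Entrez gene 81780), was not above background on any array. Its log2 signal was 2.45 after Met-ENK and 2.77 after β-END(1-9), against 2.77 in control cells. The difference of -0.32 after Met-ENK lies at the foot of the scale, where the signal does not separate a transcript from background, and it was -0.19 with the span trend removed.

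**Figure D3:**
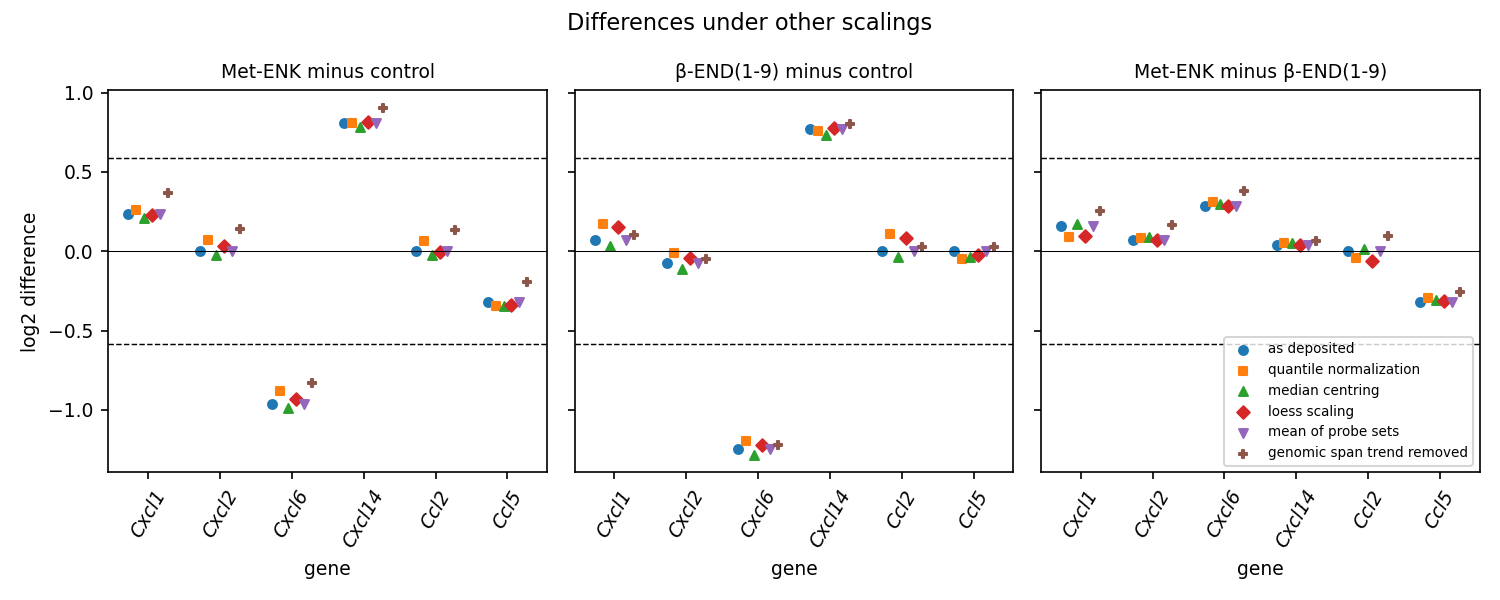
Log2 difference (y axis) of each of the 6 genes (x axis) in the 3 comparisons, from the deposited signals and under 5 other ways of scaling or combining them. Dashed lines mark 1.5-fold. Cxcl6 stays below the lower line and Cxcl14 above the upper one in both comparisons with control under every setting drawn, and no other gene passes a line. The mean of probe sets repeats the deposited value, since each gene has 1 probe set.

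Position in the genome separates these genes into 3 chromosomes. Cxcl1, Cxcl2 and Cxcl6 belong to a cluster of CXC genes on chromosome 14, Ccl2 and Ccl5 lie on chromosome 10 and Cxcl14 on chromosome 17. In the RefSeq order of protein-coding genes, Cxcl2 and Cxcl1 are adjacent. Cxcl3, which was not among the named genes of the array, and the platelet chemokine genes Pf4 and Ppbp lie between Cxcl1 and Cxcl6. Rassf6 follows Cxcl6. Of 8 measured neighbours of these genes in this stretch, 0 were 1.5-fold lower than control. Among genes passing the filter 6.02% were lower after Met-ENK and 2.27% after β-END(1-9), so nothing is read from that count. Pf4, Ppbp, Rassf6, Afm and Afp lay inside the background range on every array, where a decrease could not be told from background. Ppbp, next to Cxcl6 on one side, had a log2 signal of 3.04 on each array. Rassf6 on the other side had 7.26 after Met-ENK and 6.88 after β-END(1-9), against 7.03 in control cells. Pf4 had 3.67 after Met-ENK and 3.41 after β-END(1-9), against 3.06 in control cells, a Met-ENK difference of 0.60 at signals inside the background range. On the far side of Cxcl2, the folate enzyme gene Mthfd2l was 0.27 higher after Met-ENK and 0.46 higher after β-END(1-9), and the EGF receptor ligand gene Ereg differed by -0.20 and 0.04 in the same order. Areg, another such ligand gene, had 10.07 on all 3 arrays.

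**Figure D4:**
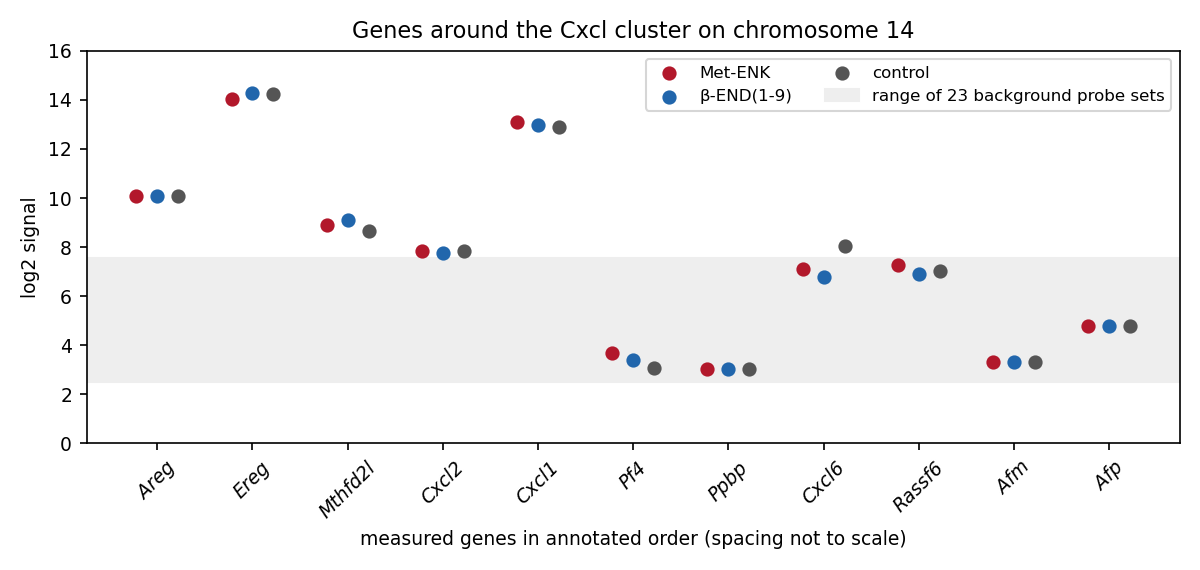
Log2 signal (y axis) of the measured protein-coding genes around the chemokine cluster of chromosome 14, in annotated order (x axis, spacing not to scale), 1 point per array, in the order Met-ENK, β-END(1-9) and control from left to right. The grey band is the background range, 2.51 to 7.57. Cxcl6 has its control point above both peptide points, and the points of Areg, Ppbp, Afm and Afp coincide.

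On chromosome 10 the measured genes next to Ccl2 lay inside the background range. Ccl7, a monocyte attractant, had 6.37 after Met-ENK and 6.48 after β-END(1-9), against 6.48 in control cells. Ccl11, the eosinophil attractant eotaxin, had 4.25 after either peptide, against 3.71 in control cells. Next to Ccl5, Ccl9 had 3.96 after Met-ENK and 3.17 after β-END(1-9), against 3.24 in control cells, again inside the background range. On the other side of Ccl5 the nearest measured gene, Taf15, was above that range on every array. Taf15 had 15.21 after Met-ENK and 15.09 after β-END(1-9), against 15.21 in control cells.

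Genes with the pair of differences nearest to those of Cxcl6 and Cxcl14 were looked up by Euclidean distance over the 3 arrays. For Cxcl6 these were Alg5, an enzyme of N-glycan assembly, at a distance of 0.13, then the cytochrome P450 gene Cyp4v3 at 0.28 and Rprd1b at 0.29. Alg5 had 7.37 after Met-ENK and 7.01 after β-END(1-9), against 8.21 in control cells. Rprd1b, a regulator of RNA polymerase II, had 9.64 and 9.42 with the peptides in the same order, against 10.43 in control cells, above background on every array. For Cxcl14 the nearest genes were the Myc antagonist Mnt at 0.03, Olfm1 at 0.12 and Insl3 at 0.15. Mnt had 8.43 after either peptide, against 7.64 in control cells. With 3 arrays such a likeness covers no more than 2 independent differences.

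Other chemokine genes were mostly not above background. Of 31 listed, 29 were measured, and the pair above the background range on all 3 arrays was Cxcl10 and Cxcl16. Cxcl16, a membrane-bound chemokine, had a log2 signal of 12.75 after Met-ENK and 12.53 after β-END(1-9), against 12.69 in control cells. Cxcl10, an interferon-induced T cell attractant, had 7.94 after either peptide, against 7.99 in control cells. Both lay within 1.5-fold of control. Of the 29 genes, 13 were higher and 6 lower after Met-ENK, and 14 were higher and 6 lower after β-END(1-9), with a median difference of 0.00 in both comparisons. Over all 15037 named genes the median was also 0.00, with 5604 higher and 5394 lower after Met-ENK and 4632 higher and 5934 lower after β-END(1-9). The neutrophil attractant Cxcl3 was not among the named genes of the array and so has no value here, and Cxcl5 is a synonym of the Cxcl6 gene above.

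Chemokine receptor genes gave 1 signal above background among 19 measured, that of Ackr3, an atypical receptor that takes up CXCL12. Its log2 signal was 9.28 after Met-ENK and 9.16 after β-END(1-9), against 9.16 in control cells. Cxcr2, the receptor of CXCL1 and CXCL2, had 5.23 after either peptide, against 5.02 in control cells. Ccr2, the receptor of CCL2, had 4.46 after Met-ENK and 4.93 after β-END(1-9), against 4.46 in control cells. Such signals leave the presence of either receptor undetermined. Of the 19 genes, 11 were higher and 4 lower after Met-ENK (median 0.05), and 10 were higher and 3 lower after β-END(1-9) (median 0.08). Over all 15037 named genes 5604 were higher and 5394 lower after Met-ENK, and 4632 were higher and 5934 lower after β-END(1-9). Apart from Ackr3 the receptor signals lay inside the background range, so nothing is read from the receptor counts.

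Genes of the NF-κB pathway all passed the level filter (17 of 17 measured). Its subunit gene Rela had a log2 signal of 12.91 after Met-ENK and 12.71 after β-END(1-9), against 12.92 in control cells. Nfkbia, which encodes the inhibitor IκBα and is itself an NF-κB target, had 11.24 after Met-ENK and 11.20 after β-END(1-9), against 11.24 in control cells. Neither differed by 1.5-fold. Birc3, an NF-κB-induced ubiquitin ligase of the TNF receptor complex, was the member past it: its log2 signal was 6.64 after Met-ENK and 7.40 after β-END(1-9), against 7.77 in control cells. The Met-ENK array was the low one, at a measured -1.13 from control and -0.76 from β-END(1-9). Only the control value exceeded the background range. With the highest background probe set as the floor, the measured Birc3 signal was at least 1.15-fold lower after Met-ENK, again with the single control value taken as exact. Birc3 was 1 of 17 genes past 1.5-fold lower after Met-ENK, where 6.02% of genes passing the filter were. Nothing is read from that count about the pathway. Over the list 5 genes were higher and 8 lower after Met-ENK (median 0.00), and 3 were higher and 11 lower after β-END(1-9) (median -0.04). Over the 7519 genes passing the filter, 2457 were higher and 3436 lower after Met-ENK (median 0.00), and 1412 were higher and 4220 lower after β-END(1-9) (median -0.03).

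The next list holds receptor and adaptor genes for IL-1, TNF, IL-17, interferon-γ, oncostatin M and related cytokines, and microbial products. Among its 14 measured genes, Il17ra was past 1.5-fold with signal above background. It encodes the shared IL-17 receptor chain, and its log2 signal was 10.26 after Met-ENK and 9.79 after β-END(1-9), against 9.55 in control cells. The Met-ENK array was the highest, 0.71 above control (1.64-fold) and 0.48 above β-END(1-9). Its partner chain gene Il17rc, picked out after its values were seen, had 6.06 after Met-ENK and 6.54 after β-END(1-9), against 6.68 in control cells. Those signals lay inside the background range, 0.62 below control after Met-ENK. Tlr2 and Tnfrsf1b of the same list were also past 1.5-fold inside that range. Tlr2 was 0.66 above control after β-END(1-9). Met-ENK minus β-END(1-9) was -0.62 for Tlr2 and -0.79 for Tnfrsf1b. Of the 11 genes of the list passing the filter, 1 was 1.5-fold higher and 1 lower after Met-ENK. Over all genes passing it these shares were 0.692% and 6.02%, and nothing is read from the counts. The list median was 0.00 after Met-ENK and -0.12 after β-END(1-9), where 10 of the 14 genes were lower and 4 higher. After β-END(1-9), 5934 of all 15037 named genes were lower and 4632 higher. Among the 7519 passing the filter 4220 were lower and 1412 higher (median -0.03). Nothing is read from the directions in this list.

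Factors that act on chemokine mRNA decay had 0 of 8 measured genes past 1.5-fold in any comparison, where 6.72% of genes passing the filter were after Met-ENK, 2.83% after β-END(1-9) and 4.59% between the peptides. For a list of 8 genes nothing is read from a count of 0 against such shares. Zc3h12a, whose product Regnase-1 cleaves cytokine mRNAs, had 8.73 after Met-ENK and 8.34 after β-END(1-9), against 8.82 in control cells. The list median was -0.08 after Met-ENK and -0.13 after β-END(1-9), with 7 of 8 genes lower in both, where 45.7% and 56.1% of genes passing the filter were lower in the same order. The 23 measured genes for heparan sulfate proteoglycans, their synthesis and chemokine-cleaving proteases had a median of 0.00 with both peptides. Of these, 13 were above the background range on at least 1 array, and 0 of the 13 were past 1.5-fold from control. Against shares of 6.72% after Met-ENK and 2.83% after β-END(1-9), nothing is read from that count either. The syndecan gene Sdc1 had 15.41 after Met-ENK and 15.32 after β-END(1-9), against 15.41 in control cells.

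**Figure D5:**
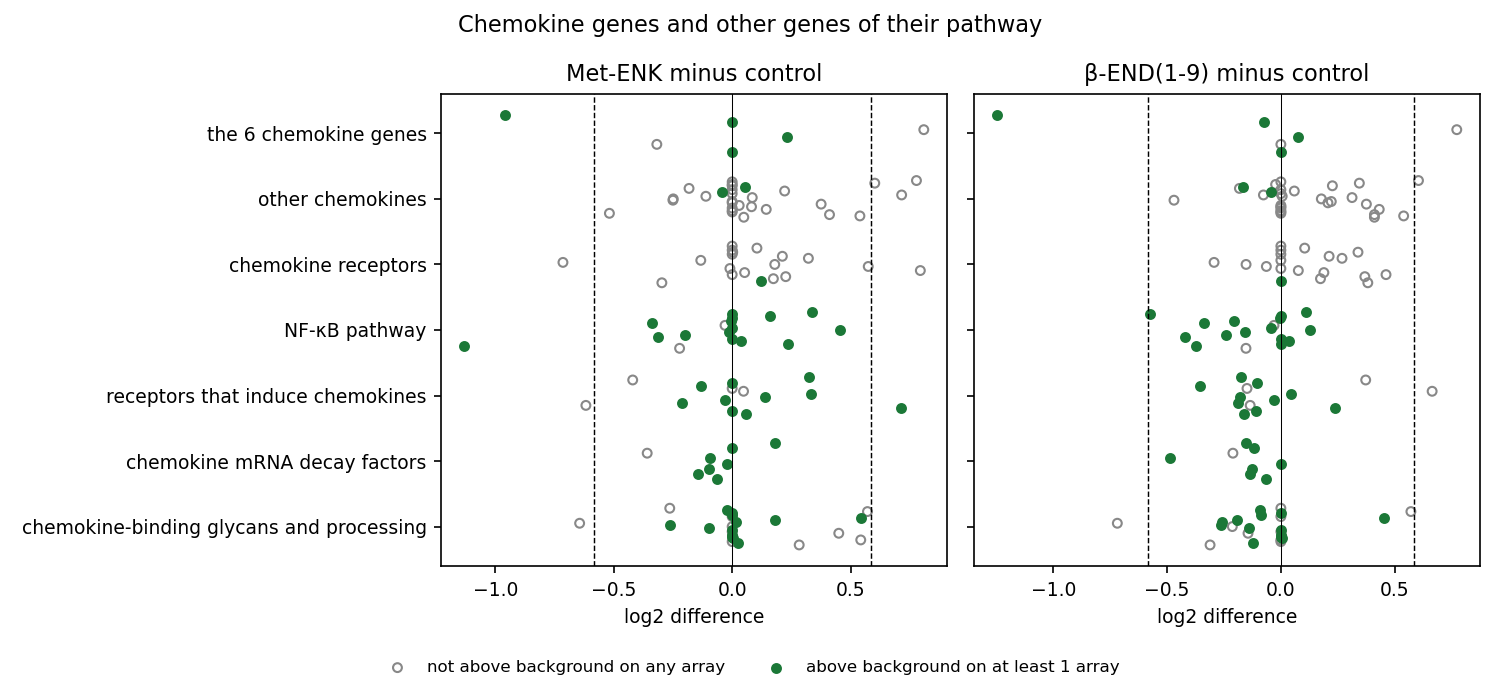
Log2 difference from control (x axis) of the 6 chemokine genes and of 6 lists of other genes of their pathway (rows), 1 point per gene, for Met-ENK on the left and β-END(1-9) on the right. Filled points were above the background range on at least 1 array, and dashed lines mark 1.5-fold. The filled points past a line are Cxcl6 in both panels and Birc3 and Il17ra after Met-ENK.

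Among the 7519 genes passing the filter, calls against control leaned towards lower signal, and this lean depended on the filter. After Met-ENK 52 were at least 1.5-fold higher and 453 lower (89.7% lower), and after β-END(1-9) 42 were higher and 171 lower (80.3% lower). After a new quantile normalization these shares were 79.1% and 64.8%. Over all 15037 named genes without the filter, 448 were higher and 633 lower after Met-ENK (58.6% lower). After β-END(1-9) 397 were higher and 296 lower (42.7% lower), so the lean there was reversed. The part of such a lean in the values of Cxcl6 and Cxcl14 was not tested.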

How the data were processed

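Biotin-labelled cDNA from 3 FRSK cultures was measured on whole-transcript arrays. The authors deposited log2 signals per probe set. Per the submitters' processing notes, RMA, the Transcriptome Analysis Console and the Affymetrix Expression Console were used, and RMA corrects background, quantile-normalizes and summarises probes. Their versions and the genome build are likewise not given in the sources used here.

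Of 24834 probe sets in the table, 1646 are controls. The platform annotation names 1 symbol for 15049 of 23188 transcript clusters, several for 0 and none for 8139. Entrez identifiers were matched to RefSeq (GRCr8), which changed 0 symbols. For 10 genes with several probe sets the highest mean was used, and each of the 6 chemokine genes has 1. Differences are plain subtractions of log2 signals, with no test, computed in Python 3.11.15 with pandas 2.3.3 and statsmodels 0.14.6. Counting was checked on simulated data. Alternatives were quantile, median and loess scaling (lowess fraction 0.3), mean of probe sets, other filters, a 2-fold threshold and, added after seeing the data, removal of the trend along genomic span.

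The genes, the lists and the settings were chosen with earlier results of these data known. Genes of other lists were named when past 1.5-fold in any comparison and above background on at least 1 array, with at most 4 per list. Other chemokines and receptors above background on all 3 arrays were named too. Further genes named as examples or neighbours were picked for their role or position.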

Additional observations from a re-analysis of the deposited data

How the results depend on the processing

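Cxcl6 and Cxcl14 kept their direction and side of 1.5-fold against control under quantile normalization, loess scaling and removal of the trend along genomic span. The mean of probe sets could not change their values, since each has 1 probe set. Median centring moves all genes of a comparison alike, for Cxcl6 from -0.96 to -0.99 after Met-ENK. It too could not carry either gene across 1.5-fold. Cxcl6 ranged from -0.99 to -0.83 after Met-ENK and from -1.28 to -1.19 after β-END(1-9), and Cxcl14 from 0.78 to 0.90 and from 0.73 to 0.80. Counts depended on the level filter and the threshold. Limiting genes to those above the highest background probe set on any array left 1 chemokine gene past 1.5-fold after either peptide, Cxcl6, because Cxcl14 is then not counted. At 2-fold, 0 chemokine genes were past the threshold after Met-ENK and 1 after β-END(1-9). For all genes, no level filter gave 1081 after Met-ENK, 693 after β-END(1-9) and 836 between the peptides (58.6%, 42.7% and 54.9% of them lower, against 89.7%, 80.3% and 58.8% with the filter), and 2-fold gave 61, 21 and 22, against 505, 213 and 345. For the other pathway lists, 3, 0 and 2 of 56 genes passing the filter were past 1.5-fold, and 9, 3 and 9 of 110 genes without it. Over all genes passing the filter the shares were 6.72%, 2.83% and 4.59%. Without the filter the matching counts were the 1081, 693 and 836 above, of 15037 genes. Nothing is read from the list counts. At 2-fold, 1 of the 56 was past the threshold after Met-ENK and 0 between the peptides. In these lists median centring gave 1 after β-END(1-9), and the stricter background limit and the span trend each gave 1 between the peptides. The first was Traf2, at a deposited -0.57, since centring moved all genes of that comparison alike (Ccl2 from 0.00 to -0.04). The gene lost between the peptides was Adam10, at a deposited 0.59, just past the threshold and not above background on any array. No paired analysis was possible because each group holds 1 array, and for the same reason no array could be left out. Signals inside the background range limit what Cxcl14, Ccl5 and the peptide values of Cxcl6 can show.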

Other observations

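Several other genes of the chemokine system had measured differences past 1.5-fold where none of their signals exceeded the background range. They were picked after their values were seen. Xcl1, a chemokine made by T and NK cells, had a log2 signal of 4.46 after Met-ENK and 4.29 after β-END(1-9), against 3.68 in control cells. Ccr4, a receptor of T cells, had 5.27 after Met-ENK and 4.55 after β-END(1-9), against 4.48 in control cells. The decoy receptor gene Ackr2 had 4.12 after Met-ENK and 4.80 after β-END(1-9), against 4.42 in control cells. The gelatinase gene Mmp2, whose product can cleave chemokines, had 5.47 after Met-ENK and 5.40 after β-END(1-9), against 6.12 in control cells. The differences after Met-ENK against control, 0.78 for Xcl1 and 0.79 for Ccr4, stand at signals where no transcript can be told from background.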
